A study of Mus musculus with 8 samples.

Results

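Doxycycline treatment was compared with no treatment in 2 lines of RAW264.7, a mouse macrophage-like cell line, to find the genes that stood on the same side of their untreated level in both lines. All 8 of the 8 libraries of the study entered the comparison, 6 with doxycycline and 2 without. One line carried a non-silencing shRNA (shNS) and the other an shRNA against Dis3l2 (shDis3l2), an exonuclease that degrades RNAs with a uridine tail. Each line gave 3 libraries of total RNA after 4 days in 1 µg/mL doxycycline, with medium and drug renewed every day, and 1 library after the same 4 days without it. The sources used here do not state whether a line was a single clone or whether replicates were separate cultures, so p-values measure only the spread between these libraries, which may be technical. Cells without an shRNA were not analysed here, so doxycycline itself and the expression of an shRNA cannot be told apart. Dis3l2 was also lower with doxycycline in the shDis3l2 line, so there the reduced Dis3l2 cannot be told apart from either. That line's part enters every shared value.

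Doxycycline is a tetracycline antibiotic that is widely used to switch on transgenes, among them shRNAs, and that is known to inhibit translation on mitochondrial ribosomes. Type I interferons bind the receptor made of Ifnar1 and Ifnar2, and the kinases Jak1 and Tyk2 then activate a complex of transcription factors that includes Irf9 and binds interferon-stimulated response elements in promoters. In macrophages this pathway maintains and induces a large set of antiviral genes, and some of them, such as Irf7, also amplify the response.

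The libraries held 30341823 to 45557804 counts and 17388 to 18267 detected genes. Untreated shNS and replicate 2 of shNS with doxycycline stood apart from the other libraries together. Across genes, which are not independent replicates, they correlated at 0.984 with each other. Replicate 2 correlated at 0.939 and 0.945 with replicates 1 and 3, and untreated shNS at 0.935 with both. On the first principal component they lay at -107 and -102, against -15.3 and -23.7 for replicates 1 and 3. Untreated shNS is the only baseline of every shNS value, and without it the shared effect is that of shDis3l2 alone. Counts on 1 side in every library, and totals over all genes in the main tests, are given without replicate 2 too where they moved by more than 1.5 times. Dis3l2, the targeted gene, was at 29.6 CPM (the TMM-normalized count scaled to libraries of 1 common size) in untreated shNS and at 33.03, 28.65 and 22.02 CPM in shNS with doxycycline. The shDis3l2 line had 28.6 CPM untreated and 12, 13.5 and 14.9 CPM with doxycycline, so it was lower with doxycycline in all 3 libraries of the line that targets it, and in shNS on both sides of the untreated value. Most macrophage genes were present in every library: the summed level of the 38 listed ones was 8290 to 20600 CPM, with Csf1r at 1187 CPM or more. Lyz2 was the most abundant, at a mean of 4060 CPM. Not all members were at such levels in both lines: Adgre1 was at 63 to 121 CPM in shNS and at 5.01 to 25.9 CPM in shDis3l2. Of the 37 tested, 3 had 0 counts in each shDis3l2 library, Mertk among them. The defining markers Cd3e, Epcam, Ly6g and Hba-a1 had 0 counts throughout, and Col1a1 had 1 in all.

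Many interferon-induced genes were higher with doxycycline in both lines. Of 15250 genes tested, 1151 (7.55%) were higher in all 6 doxycycline libraries than in the untreated library of the same line, and 1139 (7.47%) were lower in all 6. Among 78 tested antiviral effector genes, 39 (50%) were higher in all 6 and 0 were lower. Without shNS replicate 2 these numbers were 1485 (9.79%) and 1597 (10.5%) for all genes, and 45 (57.7%) and 0 for the effectors. No gene passed a model of line plus doxycycline at an adjusted p of 0.05 (edgeR's quasi-likelihood test, 0 of 15250, 0%, smallest adjusted p = 0.663). At an unadjusted p below 0.05 there were 588 (3.86%), of which 366 (2.4%) were higher and 222 (1.46%) lower. That total was 1183 of 15167 without shNS replicate 2. DESeq2 called 38 of 14011 genes (0.271%), 34 higher (0.243%) and 4 lower (0.0285%), and limma-voom called 0 (0%). Without shNS replicate 2 the edgeR count was 23, with 5 higher and 18 lower, but 9 of the 23 had 0 counts in all shDis3l2 libraries and so show no shared effect. Fn1, or fibronectin, was one of these: it was at 1058 CPM in untreated shNS and 696.8 CPM in replicate 2, and at 0 in replicates 1 and 3.

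Interferon-induced genes stood near the top of the genes higher in all 6 libraries. Of the 985 such genes with a mean count of at least 50, 67 belonged to the interferon lists, which hold 174 tested genes of any mean count. Ordered by p, these lists gave 14 of the first 20 genes, 25 of the first 50 and 39 of the first 100. The lists were chosen with earlier results of these data known, and the order is among genes already higher in all 6. These counts are therefore a description and not a test.

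Slfn5, a Schlafen protein that restrains transcription of interferon-induced and viral genes (ENSMUSG00000054404, chromosome 11, 82951349 to 82964840, plus strand, GRCm38), was at 20.3 CPM in untreated shNS and at 32.2, 31.1 and 37.8 CPM in replicates 1, 2 and 3 with doxycycline. Values in shDis3l2 were 32.1 CPM untreated and 80.8, 71.5 and 84.0 CPM with doxycycline. All 6 treated values lay above the untreated value of their line, and the shNS replicates sat close together, replicate 2 included. On the log2 scale the treated level was higher by 1.00 (SE 0.17), by 0.73 in shNS and by 1.30 in shDis3l2. The adjusted p was 0.817 by edgeR and 2.834e-04 by DESeq2.

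Phf11d, a PHD-finger protein of an interferon-induced gene cluster (ENSMUSG00000068245, chromosome 14, 59347407 to 59365470, minus strand), was at 11.5 CPM in untreated shNS and at 22.3, 18.6 and 18.1 CPM with doxycycline. In shDis3l2 the untreated value was 19.8 CPM and the treated ones 57.3, 42.6 and 48.9 CPM. Treated and untreated values did not overlap in either line, and untreated shDis3l2 lay within the range of treated shNS. The shared log2 difference was 1.04 (SE 0.19), with an adjusted p of 0.951 by edgeR and 0.00145 by DESeq2.

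Usp18, the protease that removes Isg15 from proteins and dampens signalling at the interferon receptor (ENSMUSG00000030107, chromosome 6, 121245906 to 121270917, plus strand), was at 1.07 CPM in untreated shNS and at 16.5, 2.72 and 9.64 CPM with doxycycline. It was at 21.3 CPM in untreated shDis3l2 and at 76.0, 55.0 and 53.7 CPM with doxycycline. The shNS replicates spread widely, with replicate 2 nearest to the untreated value, and untreated shDis3l2 was above every shNS library. The shared log2 difference was 2.16 (SE 0.72), with an adjusted p of 0.951 by edgeR and 0.0300 by DESeq2. It was 3.16 in shNS and 1.53 in shDis3l2, and edgeR gave an unadjusted p of 0.237 for the contrast of these values.

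Rtp4, a zinc-finger protein that restricts RNA viruses (ENSMUSG00000033355, chromosome 16, 23520291 to 23614222, plus strand), gave 1.04 CPM in untreated shNS and 17.0, 4.19 and 9.04 CPM with doxycycline. In shDis3l2 the values were 34.4 CPM without and 75.8, 75.1 and 81.4 CPM with doxycycline. As for Usp18, shNS replicate 2 was the lowest treated value and untreated shDis3l2 exceeded all of shNS. The shared log2 difference was 1.94 (SE 0.66), with an adjusted p of 0.951 by edgeR and 0.0410 by DESeq2. It was 3.27 in shNS and 1.17 in shDis3l2 (edgeR unadjusted p = 0.0714 for the contrast), the values that remain when the untreated library of the other line is left out. For all 4 genes the exact permutation test of doxycycline within lines gave p = 0.0625, the smallest value its 16 arrangements can give, so it cannot reach 0.05. Having all 6 treated values above the untreated value of their line, as these genes do, all but fixes that p.

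**Figure D1:**
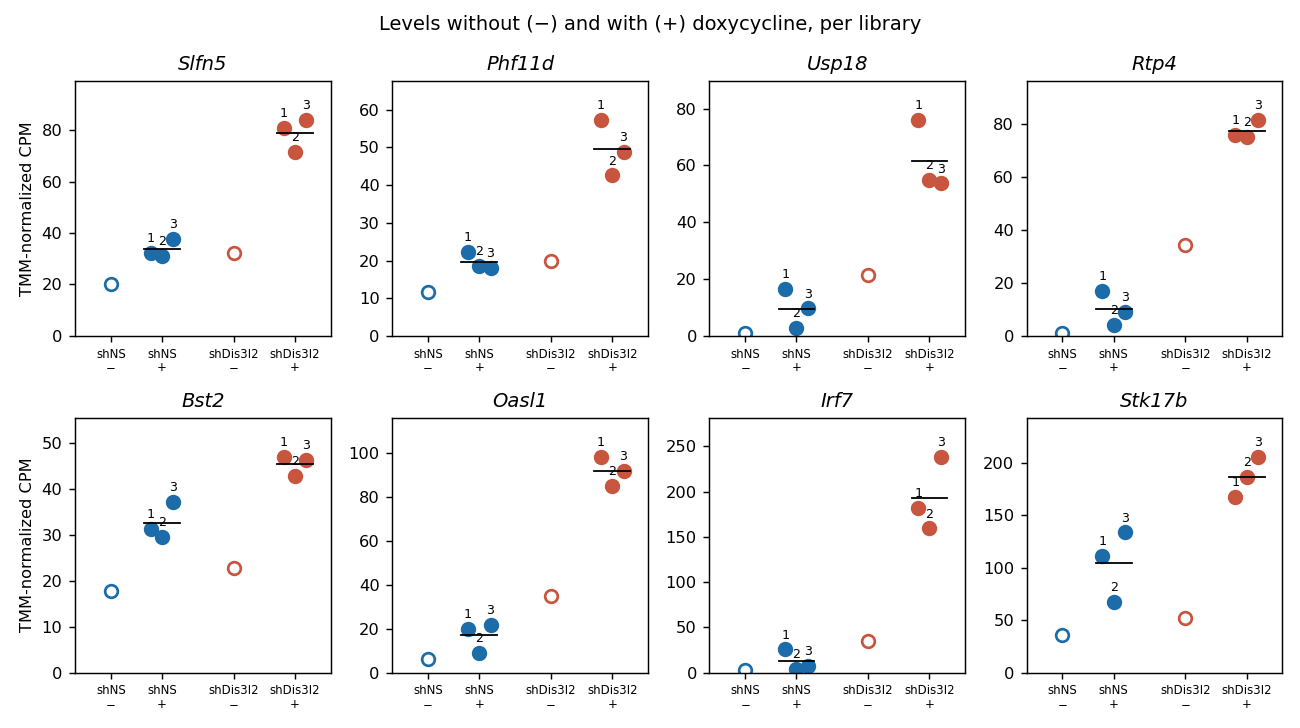
TMM-normalized CPM (y axis, from 0) of 8 genes in shNS (blue) and shDis3l2 (red) without doxycycline (open points, 1 library each) and with it (filled points, numbered by replicate, the bar being the mean of 3). In each panel all 6 filled points lie above the open point of the same colour. For Usp18, Rtp4, Oasl1 and Irf7 the open shDis3l2 point lies above the filled shNS points.

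Promoter sequence was set beside these levels because the interferon-stimulated response element is the site through which the pathway acts. Its core was searched on both strands, as 2 copies of GAAA with any 2 bases between them, in the 250 bases before each RefSeq start (GRCm38.p6). It was found in 2.98% of 32851 windows and in 334 (3.39%) of the 9864 tested genes with a window. Of 61 antiviral effectors with a window, 24 (39.3%) held it. The share was alike among effectors higher in all 6 libraries (12 of 31, 38.7%) and the other effectors (12 of 30, 40%). It was 53 of 847 (6.26%) among all genes higher in all 6, and 20 of 693 (2.89%) among those lower in all 6. A match is a string of letters and not a shown binding site. The windows below are given 5′ to 3′ on the strand of the gene, with the matched letters in capitals. Slfn5 and Bst2 are the genes with a match among the 10 named as higher, Isg15 and Ifit1 are effectors higher in all 6, and Mrps6 is the lower gene with the smallest p. Slfn5 has 1 match, which begins 155 bases before the start (chr11:82951852-82952101, plus strand). Bst2 has 2 overlapping ones (chr8:71537473-71537722, minus strand), Isg15 has 3 overlapping ones (chr4:156200819-156201068, minus strand), and Ifit1 has 2 (chr19:34640639-34640888, plus strand). Mrps6 has 0 (chr16:92058086-92058335, plus strand).
Slfn5: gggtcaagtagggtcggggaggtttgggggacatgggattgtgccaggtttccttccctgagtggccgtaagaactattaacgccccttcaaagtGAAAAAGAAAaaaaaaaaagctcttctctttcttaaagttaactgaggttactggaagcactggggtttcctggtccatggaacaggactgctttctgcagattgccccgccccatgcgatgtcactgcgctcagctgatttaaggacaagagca
Bst2: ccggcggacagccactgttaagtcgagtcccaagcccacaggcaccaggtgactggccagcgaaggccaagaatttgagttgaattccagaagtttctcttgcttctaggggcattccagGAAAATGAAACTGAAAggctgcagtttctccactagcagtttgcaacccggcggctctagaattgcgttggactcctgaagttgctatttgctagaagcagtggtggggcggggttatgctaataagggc
Isg15: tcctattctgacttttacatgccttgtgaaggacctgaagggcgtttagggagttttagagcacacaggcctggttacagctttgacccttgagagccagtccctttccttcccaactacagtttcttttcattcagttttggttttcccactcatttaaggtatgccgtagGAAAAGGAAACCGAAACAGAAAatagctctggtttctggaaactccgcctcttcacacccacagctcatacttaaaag
Ifit1: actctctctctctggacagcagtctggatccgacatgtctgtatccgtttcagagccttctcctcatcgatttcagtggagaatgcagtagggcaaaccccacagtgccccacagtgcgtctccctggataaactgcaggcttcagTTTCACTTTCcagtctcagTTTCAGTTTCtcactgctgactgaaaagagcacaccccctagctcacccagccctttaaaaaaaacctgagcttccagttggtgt
Mrps6: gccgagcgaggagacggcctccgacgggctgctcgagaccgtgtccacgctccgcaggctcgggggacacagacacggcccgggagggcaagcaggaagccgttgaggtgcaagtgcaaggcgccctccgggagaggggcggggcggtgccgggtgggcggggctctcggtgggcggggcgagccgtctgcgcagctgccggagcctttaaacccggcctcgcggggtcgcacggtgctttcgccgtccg

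Bst2 and Nod2 separated treated from untreated libraries with little spread. Bst2, the membrane protein tetherin that holds budding virions at the cell surface (chromosome 8, 71534255 to 71537456), was at 17.9 CPM in untreated shNS and at 31.2, 29.5 and 37.2 CPM with doxycycline. In shDis3l2 Bst2 was at 22.9 CPM without and at 47.0, 42.9 and 46.3 CPM with doxycycline, so every treated library of either line exceeded both untreated ones. Its log2 fold change of 0.93 (SE 0.13; edgeR adjusted p = 0.663, DESeq2 adjusted p = 3.714e-06) had the smallest unadjusted p of all genes. Nod2, a cytosolic sensor of bacterial muramyl dipeptide (chromosome 8, 88647315 to 88688474), was at 4.23 CPM in untreated shNS and at 10.7, 9.86 and 9.70 CPM with doxycycline. In shDis3l2 Nod2 was at 6.15 CPM without and at 11.3, 11.1 and 11.5 CPM with it. The 6 treated values of Nod2 were alike across the lines (log2 fold change 1.06, SE 0.16, edgeR adjusted p = 0.663).

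Stk17b had the largest fold change among the 10 named genes other than Oasl2. This serine/threonine kinase, also known as Drak2 (chromosome 1, 53755506 to 53785224), was at 36.2 CPM in untreated shNS and at 110.9, 67.5 and 133.5 CPM with doxycycline. In shDis3l2 Stk17b was at 52.4 CPM without and at 167.7, 186.5 and 205.8 CPM with doxycycline. It was higher by 1.67 on the log2 scale (SE 0.26), with an edgeR adjusted p of 0.663. Without shNS replicate 2 it was 1.78 and passed edgeR (adjusted p = 0.00942). That leaves in treated shNS only replicates 1 and 3, which stood apart from untreated shNS. Without replicates 1 and 3 together, Stk17b was at 1.44. Oasl1, a member of the oligoadenylate synthetase-like genes (log2 fold change 1.45, SE 0.31), likewise passed edgeR without replicate 2, at 1.57 (adjusted p = 0.0130), and was at 1.09 without replicates 1 and 3 together. It was at 5.99 CPM in untreated shNS and at 19.9, 9.13 and 21.6 CPM with doxycycline, and at 34.6 CPM in untreated shDis3l2 and at 98.2, 84.9 and 91.6 CPM with it. The other named genes were Oasl2, its paralog (1.96, SE 0.40), Xaf1, a pro-apoptotic interferon-induced protein (1.40, SE 0.31), Tlr3, the endosomal sensor of double-stranded RNA (0.87, SE 0.18), and Fkbpl, an FK506-binding-like protein (1.17, SE 0.26, with 0.76 in shNS and 1.64 in shDis3l2). All 6 treated libraries exceeded their untreated library for these 4 as well, and the edgeR adjusted p was 0.951 for each.

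The gene lists that follow were set out by role, and they overlap: Irf7, Irf9 and Stat2 count both as signalling genes and as effectors. The median log2 fold change of all genes tested was 0.01. Interferon genes themselves were at the edge of detection. Ifnb1 had 3 counts over the 8 libraries, 2 of them in untreated shDis3l2, and Ifna4, Ifng and Ifnl2 had 0. Of the 5 tested ligand and receptor genes, 1 was higher in all 6 libraries. It was Ifnar1, a chain of the type I receptor, at 63.8 CPM in untreated shNS and 103.6, 71.2 and 131.4 CPM with doxycycline, and at 95.3 CPM in untreated shDis3l2 and 117.6, 116.2 and 132.7 CPM with it (log2 fold change 0.51, SE 0.22, edgeR adjusted p = 0.951). Its partner Ifnar2 was higher in 4 of 6 (0.09).

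Among 17 signalling genes and transcription factors 4 were higher in all 6 (23.5%) and 0 were lower, with a median of 0.12. Irf7, the transcription factor that amplifies interferon responses, was at 2.80 CPM in untreated shNS and at 25.5, 4.39 and 7.74 CPM with doxycycline. In shDis3l2 Irf7 was at 34.9 CPM without and at 182.1, 159.3 and 238.7 CPM with it, and its log2 fold change of 2.32 (SE 0.69, edgeR adjusted p = 0.951) was 2.16 in shNS and 2.47 in shDis3l2. Irf9, the DNA-binding subunit of the complex that forms at the receptor's signal, was at 0.80 (SE 0.23), and Batf2 and Ifi35 at 0.99 and 0.75. Stat2 was higher in 5 of 6 libraries (0.68). Jak1 (0.12), Tyk2 (0.02), Irf3 (0.17) and Irf1 (-0.12) were each on both sides of the untreated values.

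Of 23 tested sensors of nucleic acids and their adaptors, 7 were higher in all 6 libraries (30.4%), 1 was lower, and the median was 0.37. The 7 were the RNA helicases Dhx58 (log2 fold change 1.60) and Ddx58 (1.14), which encodes RIG-I, Tlr3, the editing enzyme Adar (0.50), the kinase Eif2ak2, or PKR (0.46), the ubiquitin ligase Trim25 (0.47) and the death-domain kinase Ripk1 (0.15). Ddx58 was at 26.4 CPM in untreated shNS and at 62.0, 35.4 and 30.6 CPM with doxycycline, and at 40.9 CPM in untreated shDis3l2 and 148.7, 110.3 and 129.4 CPM with it. The gap was wider in shDis3l2 (1.66) than in shNS (0.69), with an unadjusted p of 0.125 for that difference by edgeR. Tlr7, the endosomal sensor of single-stranded RNA, was the member lower in all 6 (-0.43): it was at 248.3 CPM in untreated shNS against 146.8, 233.8 and 118.0 CPM, and at 213.4 CPM in untreated shDis3l2 against 184.3, 170.0 and 178.2 CPM. The adaptors Mavs (-0.07), Myd88 (-0.02) and Tmem173, which encodes STING (-0.08), had values within 0.1 of no difference.

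The antiviral effectors were the list with the most members higher in both lines. Of 82 genes listed, 81 were in the table and 78 passed the filter on low counts, which a gene can pass through the group where it is high. The median log2 fold change of the 78 was 0.77, at 0.54 in shNS and 1.06 in shDis3l2. In all, 76 of 78 had a positive value in the additive model, where the median of all genes was 0.01. The exceptions were Ifit1bl1 (-0.28) and Ifitm6 (-0.14). An unadjusted edgeR p below 0.05 with a positive value was found for 42 of the 78, against 366 of all 15250 genes (2.4%). DESeq2 called 15 of the 78 as higher, against 34 of 14011 genes (0.243%). These members share the 1 untreated library of each line, so they are not separate results. Counted by library, 65, 56 and 53 of the 78 were above untreated shNS in replicates 1, 2 and 3, and 76, 74 and 75 were above untreated shDis3l2. The median difference was 0.86, 0.15 and 0.40 in the shNS replicates and 1.05, 0.93 and 1.08 in those of shDis3l2. By the median shNS replicate 2 was the lowest of the 6 and by the number of genes replicate 3 was, while the shDis3l2 replicates lay close together. For all genes the median difference lay between -0.003 and 0.010 in each library, so a single library had about as many genes above as below. Of all genes, 23.8% were higher in all 3 shNS libraries at once than in their untreated library, and 29.4% in all 3 of shDis3l2. Those 2 shares are stricter than the counts by library and are not their background. The summed level of the 78 genes, which the most abundant ones set, was 3346 CPM in untreated shNS and 3801, 3634 and 3231 CPM with doxycycline, so in shNS the sum lay on both sides. In shDis3l2 the sum was 3374 CPM without and 6500, 5375 and 5940 CPM with doxycycline. Cells that each held more of these RNAs and more cells that expressed them cannot be told apart in bulk RNA.

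**Figure D2:**
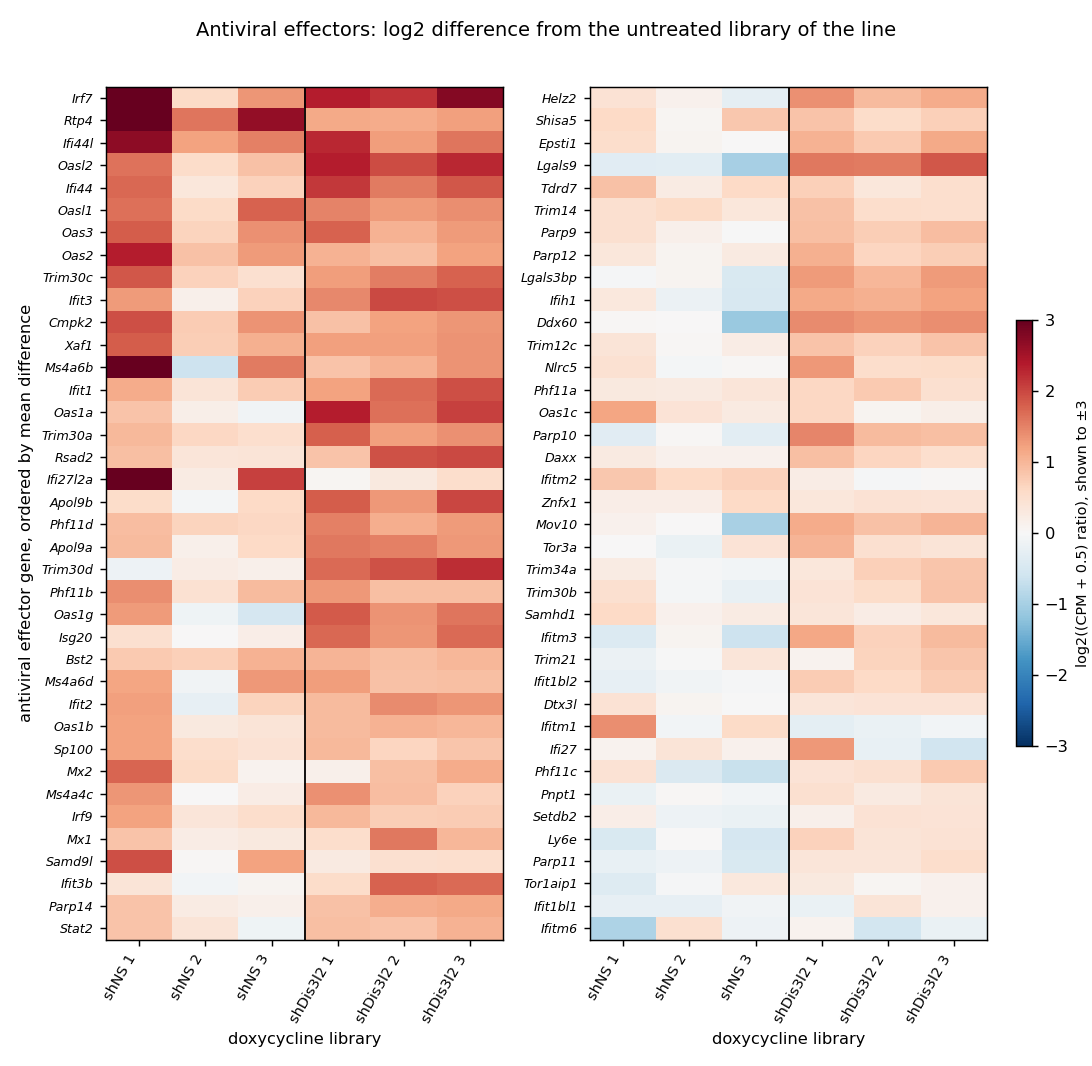
Each cell is the log2 ratio of (CPM + 0.5) in 1 doxycycline library (columns) to the untreated library of the same line, for 76 of the 78 tested antiviral effectors (rows, ordered by their mean over the 6 libraries, the second panel continuing the first). The colour scale stops at 3 in either direction. The shDis3l2 columns are nearly uniform, with 74 to 76 of the 78 genes above 0, and the column of shNS replicate 2 is the palest.

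Most named members of the large effector families were higher in all 6 libraries. Ifit1, which binds RNA with an unmethylated cap, was at 0.357 CPM in untreated shNS and at 1.35, 0.615 and 0.950 CPM with doxycycline. In shDis3l2 Ifit1 was at 4.45 CPM without and at 11, 15.7 and 18.4 CPM with it (log2 fold change 1.62, SE 0.36, edgeR adjusted p = 0.951). Ifit3, its binding partner, had 2.10, and Ifit2, higher in 5 of 6, had 1.00. Oas3, a synthetase of oligoadenylate messengers, was at 33.9 CPM in untreated shNS and at 121.3, 54.4 and 88.1 CPM with doxycycline. In shDis3l2 Oas3 was at 107.0 CPM without and at 363.2, 219.8 and 258.9 CPM with it, and the fold changes of the lines were nearly equal (1.37 and 1.39). Oas2 had 1.37. Rsad2, or viperin, which makes a chain-terminating nucleotide, and its neighbour Cmpk2, which supplies the nucleotide, had 1.28 and 1.40. Other values were 2.05 for Ifi44l, 1.44 for Ifi44, 1.10 for Trim30a, 1.12 for the exonuclease Isg20 and 1.11 for Mx2, a dynamin-like GTPase, and all 5 were higher in all 6 libraries. Reads of close paralogs such as the Oas1, Ifit and Trim30 genes are divided among them by estimation.

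The Isg15 system followed. Isg15 is a ubiquitin-like protein that is attached to other proteins during the interferon response. Of 6 tested genes 4 were higher in all 6 libraries (66.7%), with a median of 0.86. Isg15 itself was at 0.632 CPM in untreated shNS and at 2.55, 0.937 and 1.53 CPM with doxycycline, and at 2.72 CPM in untreated shDis3l2 and 17.9, 11.2 and 12.4 CPM with it (log2 fold change 1.89, SE 0.45, edgeR adjusted p = 0.951). The conjugating enzyme Ube2l6 was at 1.14, the ligase Trim25 at 0.47, and Usp18 has been described above. The activating enzyme Uba7 (0.56) and the ligase Herc6 (0.58) were higher in 4 of 6 libraries.

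In the Schlafen family, a group of interferon-induced growth and RNA regulators that lie together on chromosome 11, 3 of 7 tested genes were higher in all 6 libraries (42.9%, median 0.61), and 5 of 7 without shNS replicate 2. Besides Slfn5 these were Slfn4 (0.63) and the pseudogene Slfn10-ps (0.61). Slfn2 had the highest value (1.17), but shNS replicate 2, at 11.7 CPM, was below the untreated 14.6 CPM, while replicates 1 and 3 were at 40.1 and 63.7 CPM. Slfn8 was at 0.44, and Slfn9 and Slfn3 at 0.15 and 0.04. In the Phf11 cluster on chromosome 14, Phf11d, Phf11b (1.19) and Phf11a (1.35) were higher in all 6, 3 of the 6 genes (50%, median 0.63). The neighbours Phf11c (0.21), the histone methyltransferase Setdb2 (0.14) and Rcbtb1 (-0.05) were on both sides of their untreated values. Phf11a was at 0.671 CPM at most, a level that limits its precision, and reads of the Phf11 paralogs may be shared.

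The p200 genes encode nuclear sensors and regulators that bind DNA. Of 11 tested, 5 were higher in all 6 libraries (45.5%), with a median of 2.10, and 8 (72.7%) without shNS replicate 2. Ifi203 was at 12.6 CPM in untreated shNS and at 84.1, 20.5 and 23.9 CPM with doxycycline, and at 49.3 CPM in untreated shDis3l2 and 144.3, 90.7 and 85.8 CPM with it (1.42, SE 0.61, edgeR adjusted p = 0.951). Ifi204 was at 2.52, Ifi207 at 2.10 and Mndal at 1.19. Ifi207 was at 2.42 CPM in untreated shNS and 3.19 CPM in replicate 2, against 57.0 and 54.5 CPM in replicates 1 and 3, so its shNS value rests on those 2 libraries. Aim2, the DNA sensor of the inflammasome and a member of the same family, was at -0.21 with values on both sides.

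Interferon-induced GTPases of the IRG and GBP families, which act on vacuoles that hold pathogens, gave 8 of 15 genes higher in all 6 libraries (53.3%), with a median of 1.38. Without shNS replicate 2 the count was 12 of 15 (80%). Igtp was at 4.26 CPM in untreated shNS and at 7.49, 6.03 and 7.45 CPM with doxycycline, and at 7.75 CPM in untreated shDis3l2 and 26.9, 19.2 and 20.3 CPM with it (1.10, SE 0.24, edgeR adjusted p = 0.951). Gbp9 had 2.04, Irgm2 0.80 and Ifi47 1.00. Irgm1 had 0.47 in the additive model, with 0.06 in shNS and 0.94 in shDis3l2 and an unadjusted edgeR p of 0.00457 for the difference (edgeR adjusted p above 0.05, as for every gene in that test). It was at 29.0 CPM in untreated shNS against 29.7, 31.5 and 29.8 CPM, and at 38.6 CPM in untreated shDis3l2 against 75.3, 71.6 and 75.6 CPM. Some members of these 2 families had 0 counts on one side. With each of those placed at the bound given by 3 counts per library, the shDis3l2 median was 1.67 in place of 1.88 for the GTPases and 1.12 in place of 1.64 for the p200 genes.

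Antigen processing through MHC class I, which presents peptides to CD8+ T cells, gave 6 of 20 genes higher in all 6 libraries (30%), with a median of 0.40. That median was -0.00464 in shNS and 0.72 in shDis3l2, and -0.00414 over both lines without the untreated shDis3l2 library. B2m, the light chain of class I molecules, was at 175.2 CPM in untreated shNS and at 375.6, 239.2 and 449.1 CPM with doxycycline, and at 452.4 CPM in untreated shDis3l2 and 628.1, 554.7 and 525.9 CPM with it (0.65, SE 0.26, edgeR adjusted p = 0.951). H2-D1 (0.60), H2-T23 (0.63), H2-T22 (0.45), H2-Q6 (0.42) and H2-T24 (1.49) were the others. The peptide transporters Tap1 (0.43) and Tap2 (-0.02) and the proteasome subunits Psmb8 (0.33) and Psmb9 (0.02) were on both sides of the untreated values.

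Chemokines induced by interferon differed by line in direction, a difference that was not tested for the list. Of 4 tested, 0 were higher in all 6 libraries and 0 lower, and 1 was higher without shNS replicate 2. Cxcl10, which attracts activated T cells, was at 0.275 CPM in untreated shNS and at 0.378, 0.0585 and 0.259 CPM with doxycycline. In shDis3l2 Cxcl10 was at 4.75 CPM without and at 33.1, 24.4 and 17.6 CPM with it, a log2 fold change of 2.39 in shDis3l2 against -0.25 in shNS (edgeR unadjusted p = 0.0406 for the difference). Among 14 feedback inhibitors 4 were higher in all 6 (28.6%, median 0.03): Usp18, the nuclease Trex1 (0.74), Adar and Socs1 (0.32), the last with at most 1.51 CPM. Of 37 genes for NF-kB and inflammatory cytokines 3 were higher (8.11%) and 2 lower (5.41%), near the shares of all genes, and without shNS replicate 2 the higher ones were 5 of 36 (13.9%, against 9.79% of all genes). The 3 were Il1b, Saa3 and the NF-kB inhibitor Nfkbie (0.50), and the 2 were Rel, an NF-kB subunit (-0.24), and Traf1 (-0.61).

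**Figure D3:**
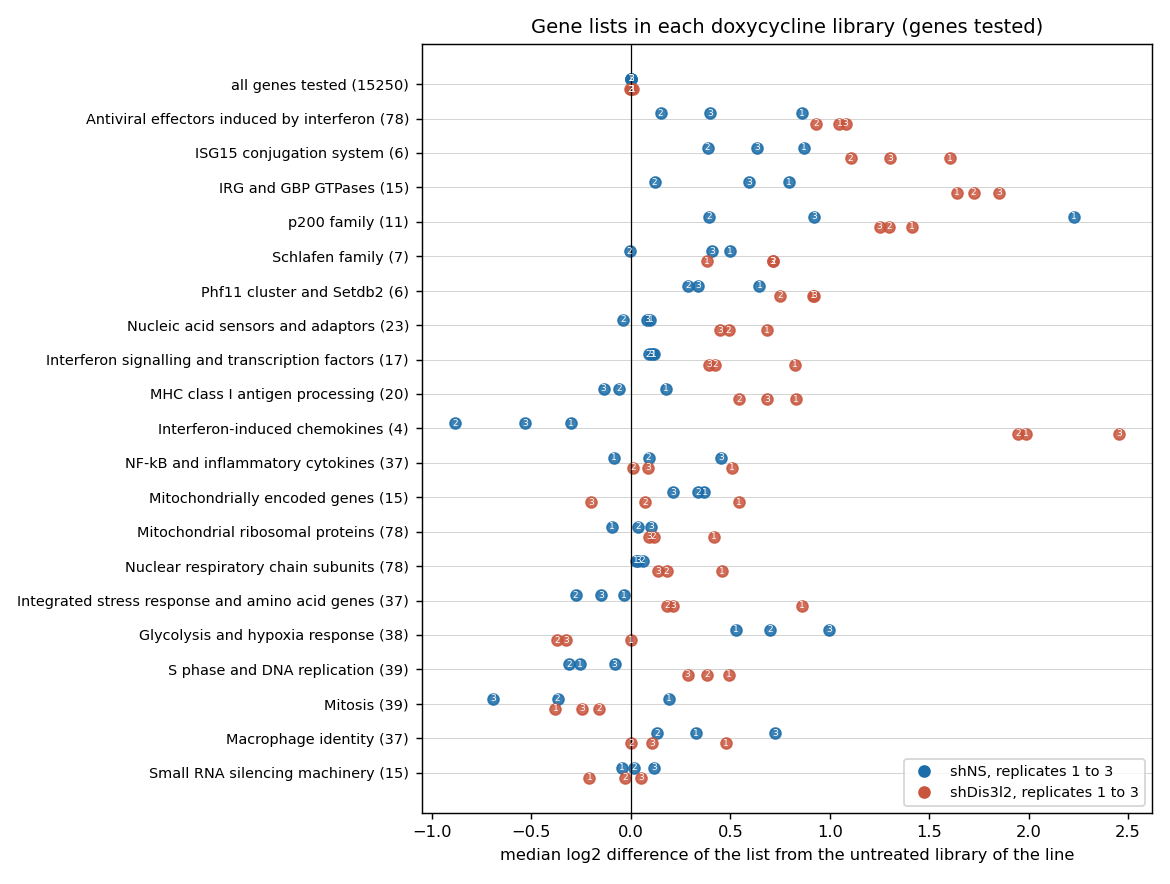
Median log2 difference of each gene list (number of genes tested in brackets) from the untreated library of the line, for the 3 shNS (blue) and 3 shDis3l2 (red) libraries with doxycycline, numbered by replicate. The 6 points of the antiviral effectors, ISG15 system, GTPases, p200 and Phf11 lists lie above 0, as do those of interferon signalling genes and nuclear respiratory chain subunits. The chemokines split by line, and the medians of all genes lie at 0.

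Genes lower in both lines belonged to varied functions. Mrps6, a protein of the small subunit of the mitochondrial ribosome (ENSMUSG00000039680, chromosome 16, 92058270 to 92112227, plus strand), was at 122.0 CPM in untreated shNS and at 64.8, 83.2 and 76.6 CPM with doxycycline. In shDis3l2 Mrps6 was at 95.4 CPM without and at 48.2, 55.5 and 60.5 CPM with it. The lines gave nearly equal log2 fold changes, -0.71 and -0.80 (additive -0.75, SE 0.13; edgeR adjusted p = 0.951, DESeq2 adjusted p = 0.00497). Slc5a3, the sodium-dependent myo-inositol transporter (chromosome 16, 92058322 to 92087473, plus strand), was at 963 CPM in untreated shNS and at 521.6, 659.8 and 308.8 CPM with doxycycline. In shDis3l2 Slc5a3 was at 806.2 CPM without and at 98.2, 206.1 and 262.9 CPM with it (-1.58, SE 0.42; edgeR adjusted p = 0.951, DESeq2 adjusted p = 0.0497). The line values were -0.96 in shNS and -2.09 in shDis3l2. Both genes were below the untreated value in all 6 libraries. They overlap on the same strand, and their RefSeq starts, at 92058336 for Mrps6 and 92058322 for Slc5a3, are 14 bases apart, so their reads are divided by estimation and the 2 values are not independent.

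Fam102b and Hivep3 were the other genes DESeq2 called as lower. Fam102b was at 96.2 CPM in untreated shNS against 58.9, 63.3 and 63.5 CPM, and at 96.9 CPM in untreated shDis3l2 against 65.2, 74.8 and 69.6 CPM (-0.55, SE 0.11, edgeR adjusted p = 0.951). Every treated library of either line was below both untreated ones. Hivep3, a zinc-finger protein that binds kB-type enhancer sites, was at 214.3 CPM in untreated shNS against 56.4, 59.1 and 105.2 CPM, and at 93.9 CPM in untreated shDis3l2 against 66.5, 55.2 and 41.2 CPM (-1.19, SE 0.29, edgeR adjusted p = 0.951). Its line values were -1.54 in shNS and -0.79 in shDis3l2. Plxnd1, a semaphorin receptor, was at 332.7 CPM in untreated shNS against 240.9, 270.1 and 261.2 CPM, and at 125.9 CPM in untreated shDis3l2 against 72.2, 65.5 and 57.1 CPM (-0.68, SE 0.16). Its line values were -0.37 in shNS and -0.95 in shDis3l2 (edgeR unadjusted p = 0.0701 for the contrast). The rest of the 10 named were Phf6 (-0.44), Orc5, a subunit of the origin recognition complex (-0.41), the RNA-binding protein Celf3 (-1.14, with -0.72 in shNS and -1.50 in shDis3l2), Trim36 (-0.87, with -1.17 and -0.52) and the mismatch repair protein Msh3 (-0.71). Msh3 differed between the lines, with -0.21 in shNS and -1.12 in shDis3l2 (edgeR unadjusted p = 0.00969, not past adjustment). All 10 had an edgeR adjusted p of 0.951. Their exact permutation p was the smallest possible, 0.0625, which their choice by having all 6 libraries on 1 side all but fixes.

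**Figure D4:**
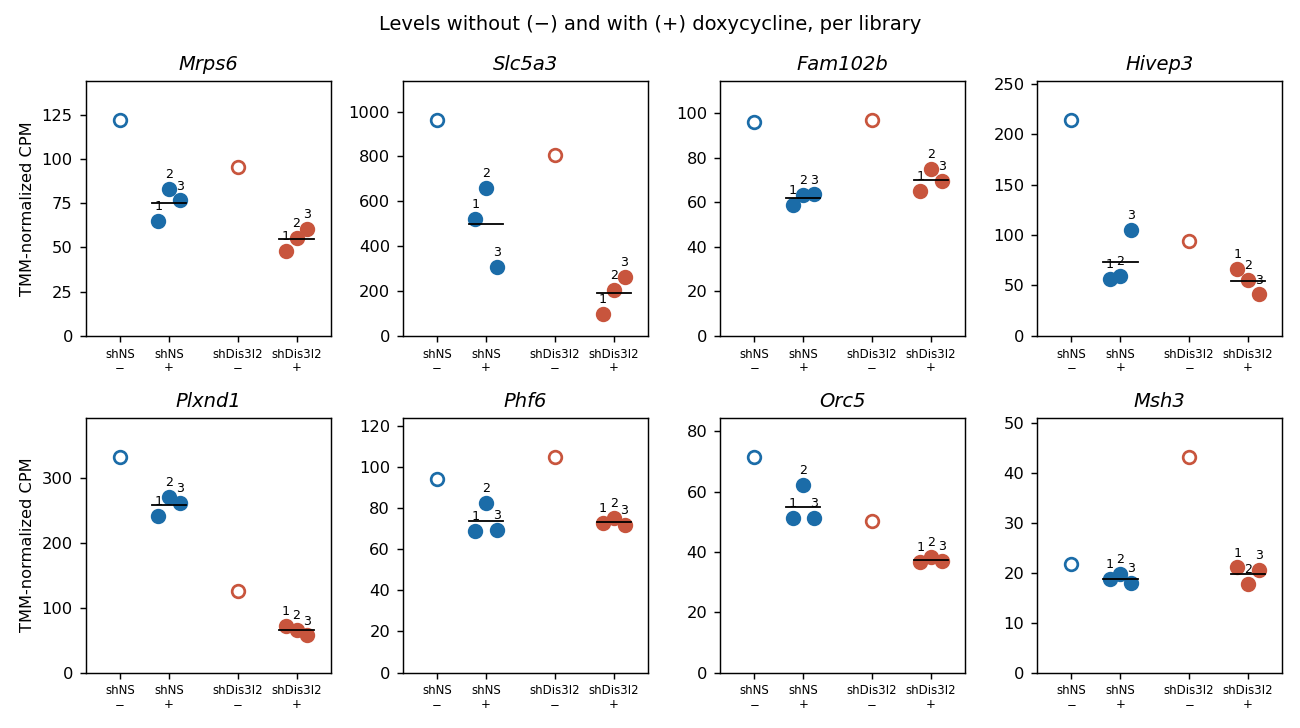
TMM-normalized CPM (y axis, from 0) of 8 genes lower in all 6 doxycycline libraries, drawn as in the plot of higher genes: shNS in blue, shDis3l2 in red, untreated libraries as open points and the bar as the mean of 3. Every filled point lies below the open point of its colour, and the gap is widest for Slc5a3 in shDis3l2, where the treated values are 98.2 to 262.9 CPM against 806.2 CPM.

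Mitochondrial genes were examined as a group because of the known action of tetracyclines on mitochondrial translation. Of 78 nuclear genes for mitochondrial ribosomal proteins, 11 were higher in all 6 libraries (14.1%, against 7.55% of all genes) and 1, Mrps6, was lower, with a median of 0.09. Without Mrps6 the lowest value in the list was that of Mrps25 at -0.10, and the highest was Mrpl52 at 0.37. Of 78 nuclear subunits of the respiratory chain, 16 were higher (20.5%) and 0 lower, with a median of 0.16. Uqcr11, a subunit of complex III, was at 43.8 CPM in untreated shNS against 52.0, 55.0 and 47.1 CPM, and at 37.2 CPM in untreated shDis3l2 against 59.0, 52.1 and 46.1 CPM (0.36, SE 0.14, edgeR adjusted p = 0.951). Of 15 genes of the mitochondrial genome 3 were higher in all 6 (20%), mt-Nd3 (0.54), mt-Nd2 (0.34) and mt-Nd4 (0.22), subunits of complex I, and the list's median was 0.22. Medians of these 3 lists were largest in shDis3l2 replicate 1, the most deeply sequenced library, at 0.42, 0.46 and 0.54. Replicate 3 of that line had -0.20 for the mitochondrial genome.

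Lists for mitochondrial upkeep and stress gave varied counts. Of 18 mitochondrial chaperones and proteases 1, Grpel1 (0.25), was higher in all 6 (5.56%), and the chaperones Hspd1 and Hspa9 were at 0.01. Of 24 factors of mitochondrial translation and biogenesis 2 were higher (8.33%) and 5 lower (20.8%, against 7.47% of all genes), the last being Mtrf1 (-0.27), Pprc1 (-0.25), Polg, the mitochondrial DNA polymerase (-0.23), Nrf1 (-0.21) and Mtif2 (-0.17). The median of that list was 0.01 and was below 0 in 7 of the 11 other scalings and left-out libraries. Of 37 genes of the integrated stress response and amino acid metabolism 1 was higher (2.7%), Atf5 (1.16), 3 were without shNS replicate 2 (8.11%), and 25 had opposite signs in the lines. Its effector Atf4 was at 0.24 and the target Asns at 0.40, each with values on both sides of the untreated ones. Of 23 genes for protein folding in the endoplasmic reticulum 2 were higher in all 6 (8.7%), Atf6 (0.38) and Edem1 (0.28), and 19 had opposite signs in the lines. Of all 15250 genes tested, 7.55% were higher in all 6 libraries and 7298 had opposite signs in the lines, so 8.33% and 8.7% are near the share of all genes.

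Mitosis genes were lower in most libraries. Of 39 tested, 0 were higher and 5 lower in all 6 libraries (12.8%, against 7.47% of all genes). In both lines 35 were negative, against 3746 of all 15250 genes. The 39 genes are read against the same 1 untreated library per line and are not separate results. The median was -0.27, at -0.24 in shNS and -0.29 in shDis3l2, and it stayed between -0.39 and -0.19 under every scaling and left-out library. The 5 were Ccnb1, the mitotic cyclin (-0.45), Tpx2, a spindle assembly factor (-0.42), Ect2, a cytokinesis factor (-0.39), Cdc20, an activator of the anaphase-promoting complex (-0.34), and the kinase Plk1 (-0.32). Ccnb1 was at 118.0 CPM in untreated shNS against 107.8, 80.0 and 59.9 CPM, and at 156.0 CPM in untreated shDis3l2 against 108.2, 128.2 and 121.6 CPM (SE 0.20, edgeR adjusted p = 0.951). The exception was shNS replicate 1, where the median of the list was 0.19 above the untreated library, against -0.37 and -0.69 in replicates 2 and 3. Genes of S phase did not follow: 0 of 39 were higher (2 without shNS replicate 2), 1 was lower (2.56%), and 35 had opposite signs in the lines, against 7298 of all 15250 genes.

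Of the rest, lists for NRF2 targets, macrophage identity, lysosomes and small RNA silencing had higher shares above the untreated level than all genes (7.55%). The shares for RNA decay and glycolysis were nearer to it. Among 38 genes for glycolysis and hypoxia 3 were higher in all 6 (7.89%), Ndrg1 (2.22), Car9 (0.83) and Pfkfb4 (0.67), but the median was 0.77 in shNS and -0.21 in shDis3l2. Of 25 genes for NRF2 targets and iron handling 5 were higher (20%), among them the phagosomal metal transporter Slc11a1 (1.21) and the ferritin heavy chain Fth1 (0.82). Of 37 macrophage genes 7 were higher (18.9%) and 1 lower (2.7%), C1qc, with a median of 0.42 (0.52 in shNS and 0.21 in shDis3l2), and 11 of 36 were higher without shNS replicate 2 (30.6%). The 7 included Siglec1, a sialic acid receptor that interferon induces in macrophages, at 2.69 CPM in untreated shNS and 21.7, 4.65 and 18.9 CPM with doxycycline, and at 4.96 CPM in untreated shDis3l2 and 23.1, 25.0 and 28.0 CPM with it (2.42, SE 0.57; edgeR adjusted p = 0.951, DESeq2 adjusted p = 4.782e-04). Of 30 genes of cholesterol and fatty acid synthesis 2 were higher (6.67%) and 1 lower (3.33%), with 4 higher without shNS replicate 2. Of 39 lysosome and autophagy genes 6 were higher (15.4%) and 0 lower (2 lower without that library). Of 31 p53 targets 2 were higher and 2 lower (6.45% each). Histone genes gave 1 higher of 73 (1.37%) and cytoplasmic ribosomal proteins 2 of 82 (2.44%), shares below that of all genes. Of 15 genes of the small RNA silencing machinery, on which shRNAs rely, 2 were higher in all 6 (13.3%): the slicer Ago2, at 305.9 CPM in untreated shNS against 374.8, 340.2 and 430.0 CPM and at 333.0 CPM in untreated shDis3l2 against 391.6, 391.0 and 386.6 CPM (0.27, SE 0.13, edgeR adjusted p = 0.951), and its partner Tarbp2 (0.22). Of 31 genes for RNA decay and uridylation 3 were higher (9.68%) and 2 lower (6.45%), the latter being the uridylyltransferase Tut4 (-0.46) and Cnot1 (-0.23).

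Markers of other cell types were low or varied by library. The summed level of the T and NK cell list was 1.66 to 311 CPM, carried by Cd28, and was 215 CPM in untreated shNS. Cd28 was at 16.1 to 309.2 CPM in shNS and at 2.85 CPM or less in shDis3l2. In that list 12 of 20 genes had 0 counts, Cd3e among them, and the B cell, granulocyte, stromal and erythroid lists summed to at most 96.8 CPM in any library. The part of these markers in the results was not tested.

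The lines were then set against each other to see how far the effect of doxycycline was shared at all. Across the 15250 genes, which are not independent replicates, 7952 (52.1%) had the same sign in both lines, and Pearson's r between the 2 lines' log2 fold changes was 0.0461 (Spearman's rho 0.0544). Over the 11700 genes with a mean count of at least 50 these were 53.4%, 0.0151 and 0.0764. Genes on the same side in all 6 libraries numbered 2290 (15%), and 1896 (12.4%) lay on 1 side in the 3 libraries of 1 line and on the opposite side in the 3 of the other. No gene passed edgeR for a difference between the lines (0 of 15250, 0%, with 577 at an unadjusted p below 0.05, 3.78%, and 34 by DESeq2, 0.237%, and 0 by limma-voom, 0%). Of the antiviral effectors 61 were positive in both lines, 1 was negative in both and 16 had opposite signs, against 4206, 3746 and 7298 of all genes. Within shNS edgeR called 0 genes (0%, 646 at an unadjusted p below 0.05, 4.24%), DESeq2 72 (0.548%) and limma-voom 1 (0.00656%). Within shDis3l2 the counts were 0 (0%, 504 unadjusted, 3.3%), 64 (0.421%) and 0 (0%). Without shNS replicate 2 the unadjusted edgeR counts, of 15167 genes, were 1486 for the difference, 2138 in shNS and 675 in shDis3l2. The untreated libraries, 1 per line, enter every such value, so a departure of either one would move all genes of its line.

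**Figure D5:**
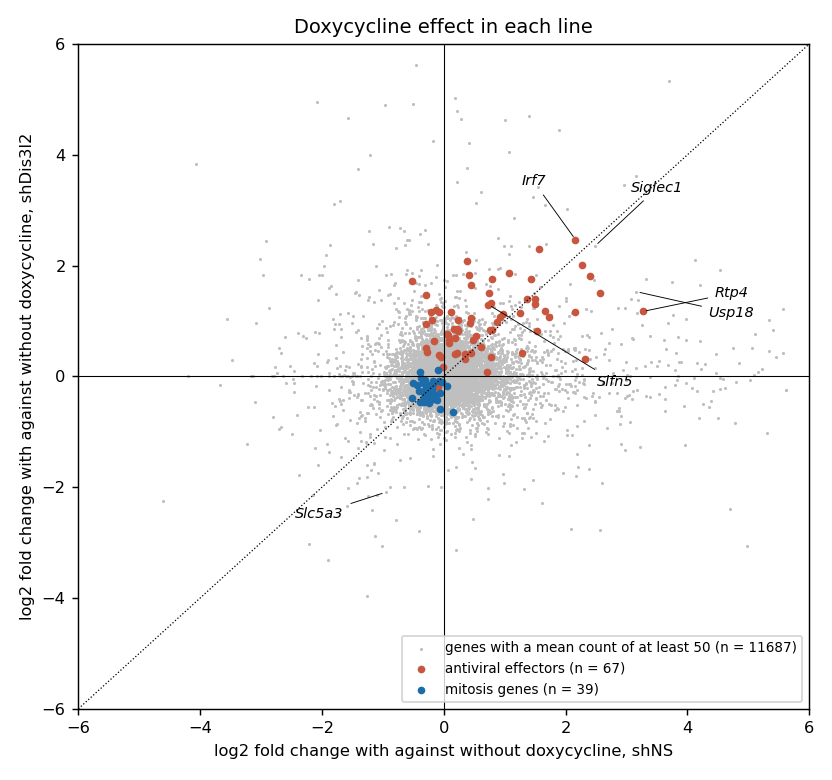
Log2 fold change with against without doxycycline in shNS (x axis) and shDis3l2 (y axis) for genes with a mean count of at least 50 (grey), with the antiviral effectors (red, 67 genes) and mitosis genes (blue, 39 genes) marked; 18 genes lie outside the axes and the dotted line marks equal values. The grey cloud has no slope (Pearson's r 0.0151), while most red points lie in the upper right and most blue ones just below and left of the centre.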

How the data were processed

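The 8 libraries came from ribosomal-RNA-depleted total RNA, were stranded and were sequenced from both ends, per the labels' protocols. The table deposited by the authors holds expected counts for 55450 genes. Cutadapt, STAR 2.7 and RSEM, with GRCm38 and mm10, are named in the submitters' processing notes. Annotation and strand setting: not given in the sources used here. All identifiers matched GENCODE M21. Expected counts were rounded to whole numbers (4.68 to 5.24% of values were not whole). Genes passed filterByExpr over the 4 groups (minimum count 10), with TMM scaling. The shared effect was tested with edgeR 4.0.16 (quasi-likelihood, robust, two-sided, Benjamini-Hochberg, 5 residual degrees of freedom) in a model of line plus doxycycline. Line effects and their difference came from a fit of 4 groups (4 residual degrees of freedom), in which each untreated library was assumed to vary like the others. DESeq2 1.42.0 and limma-voom (limma 3.58.1) were alternatives, in R 4.3.3. Reported levels are CPM from this scaling; list medians per library used log2 CPM with a prior count of 2. The fit was tested on simulated data. Replicates differed by 16.5 or more chi-square per gene, so none was a copy of another. Whether they were separate cultures cannot be seen from this. Genes named are Dis3l2, Slfn5, Phf11d, Usp18 and Rtp4, the 10 genes per direction with the smallest p among those with a mean count of at least 50 and all 6 libraries on 1 side (filling places that no gene passing the test took), and list members with the smallest p. Other members were chosen after their values were seen. The members and lists were chosen with earlier results of these data known. Some genes are not reported here. Promoters and their starts came from RefSeq.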

Additional observations from a re-analysis of the deposited data

Results flagged for a closer look

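The 3 lists named here lay on opposite sides of their untreated libraries in the lines, with every doxycycline library of shNS on one side and every one of shDis3l2 on the other. The difference was not tested for any of them. The 4 interferon-induced chemokines had medians of -0.885 to -0.30 in shNS and 1.95 to 2.46 in shDis3l2 (log2), line medians 3.27 apart. Of these genes Cxcl11 had 0 counts in all 3 shNS libraries with doxycycline, and Cxcl10 and Ccl5 were also low there. With Cxcl11 left out, as both sides were then at or under 3 counts, the shNS median was -0.25 in place of -0.93. The 37 genes of the integrated stress response and amino acid metabolism lay at -0.278 to -0.0346 in shNS and 0.18 to 0.861 in shDis3l2 (0.592 between the lines), the top value being that of shDis3l2 replicate 1. The 39 genes of S phase and DNA replication lay at -0.312 to -0.0824 and 0.285 to 0.492 (0.579 between the lines).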

How the results depend on the processing

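No paired analysis was possible because the untreated libraries are 1 per line and share no replicate number with the doxycycline libraries. The edgeR counts of 0 depended on the tool and on shNS replicate 2. DESeq2 gave 38 genes for the shared effect, 72 in shNS, 64 in shDis3l2 and 34 for the difference, and limma-voom gave 1 in shNS. With no low-count filter there were 2 in shNS and 2 for the difference. Leaving out each doxycycline library in turn gave 0 to 23 genes for the shared effect, 0 to 544 in shNS and 0 to 121 for the difference, and each upper value was without shNS replicate 2. Without shNS replicates 1 and 3 together there was 1 gene in shDis3l2, and 2332 genes were higher and 2466 lower in every library, fewer libraries being compared. Of the 23 genes, Siglec1, Stk17b, Oasl1 and Wfdc17 were higher and Whrn and Col27a1 lower in all 6 libraries. Dapk2, Hey1 and Frmpd1 were too, but in shDis3l2 on 1 or 2 counts in the untreated library against 0. The median of the antiviral effectors kept its sign in every setting, between 0.54 and 1.06. That of MHC class I genes was -0.00414 and that of the chemokines -0.93 without untreated shDis3l2. Over 17 alternatives for each of 23 named genes no direction was reversed: 373 values stayed on the same side of the threshold and 18 passed where the reported one did not. All of these genes but Dis3l2 had all 6 libraries on 1 side, most by the rule that chose them. Leaving out a library could therefore hardly reverse them, and the lack of reversals is no check of their direction. With 1 untreated library per line, its own spread is unknown.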

Other observations

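These genes were chosen after their values were seen. Nfat5, the transcription factor of the response to hypertonic stress, was lower in all 6 libraries, like the inositol transporter Slc5a3, which it is known to regulate. Nfat5 was at 1360 CPM in untreated shNS against 853, 1241 and 782.9 CPM, and at 1123 CPM in untreated shDis3l2 against 602.4, 780.0 and 834.0 CPM (a log2 difference of -0.55, SE 0.20; adjusted p = 0.951 by edgeR). The amino acid transporter Slc38a2 was also lower in all 6 (-0.37, SE 0.12). Other genes of osmolyte handling were not: aldose reductase Akr1b3 was higher in 2 of 6 (-0.14), the taurine transporter Slc6a6 in 3 of 6 (-0.02) and the betaine transporter Slc6a12 in 1 of 6 (-0.45).

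Several genes outside the interferon lists were called by DESeq2 as higher. Impdh1, an enzyme of guanine nucleotide synthesis, was at 44.0 CPM in untreated shNS against 82.7, 53.9 and 123.9 CPM, and at 40.5 CPM in untreated shDis3l2 against 249.8, 182.3 and 186.2 CPM (1.58, SE 0.42, DESeq2 adjusted p = 0.0120). Znhit3 was at 4.83 CPM in untreated shNS against 10.6, 5.24 and 10.9 CPM, and at 4.296 CPM in untreated shDis3l2 against 29.1, 21.4 and 22.5 CPM (1.59, DESeq2 adjusted p = 0.0409). Pmp22, a myelin protein also made outside nerve, was at 9.34 CPM in untreated shNS against 51.8, 52.8 and 131.2 CPM, and at 6.20 CPM in untreated shDis3l2 against 28.6, 7.65 and 12.4 CPM (2.13, DESeq2 adjusted p = 0.0494), so in shNS replicate 2 sat with replicate 1 for this gene. The tyrosine kinase Src was at 0.357 CPM in untreated shNS against 3.53, 0.322 and 10.1 CPM, and at 0.102 CPM in untreated shDis3l2 against 4.44, 3.39 and 4.82 CPM (4.33, DESeq2 adjusted p = 0.00252), with shNS replicate 2 again at the untreated level. AW011738, whose gene lies near Isg15 on chromosome 4 (156203304 to 156205151, plus strand), was higher in all 6 (1.66, SE 0.30, DESeq2 adjusted p = 0.0195).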
